A study of Mus musculus with 23 samples.

Results

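Ctcf and 6 other genes for DNA-binding or bridging factors that organise chromatin (Yy1, Maz, Patz1, Vezf1, Zfp143 and Ldb1) were examined as RNAs in CTCF iCLIP2 data. The 7 genes were named by their role, and each was represented by the crosslink sites on its own strand within its annotated body on mm10. Over the 6 site lists together the genes held 1274 of 1346716 sites, and 6 of the 7 genes held at least 1 site, among 13608 genes with a site and 55413 annotated genes. In iCLIP2, UV light links a protein to the RNA it touches, and the copying enzyme halts beside the linked nucleotide, so that a site is a single nucleotide.

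The cells were E14 mouse ESCs (embryonic stem cells) with an mCherry reporter at the Hb9 locus, in which both Ctcf alleles carried an mAID-eGFP tag and OsTIR1(F74G) was expressed from Rosa26. A doxycycline-inducible Flag-Halo-CTCF, either wild type (WT) or without part of zinc finger 1 (ΔZF1), was placed at the Tigre locus behind the pTRE3G promoter, and each rescue line was 1 clone. All groups, the controls included, received 1 µM 5-Ph-IAA to degrade the tagged endogenous CTCF and 1 µg/mL doxycycline for 24 hours. The groups were ESC WT, ESC ΔZF1 and ESC noXL, and the same 3 after 2 days of differentiation to neural progenitor cells (NPCs). The WT and ΔZF1 groups were crosslinked with 400 mJ/cm2 at 254 nm, and noXL was the WT line without UV, so the ΔZF1 line had no control without UV. RNA was recovered from nuclei with an antibody against Flag. There were 23 libraries, 4 per group and 3 for NPC WT, and the libraries of a group were merged before sites were called. Each group is therefore 1 list, with no replicate error and no test between groups, and all ranges below are 95% intervals for counting error only.

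CTCF holds chromatin loops and domain borders by binding DNA with its zinc fingers and stopping cohesin, and it also binds RNA. Yy1 encodes a zinc finger factor found at enhancers and promoters that meet in loops. Maz, Patz1, Vezf1 and Zfp143 encode zinc finger factors that bind promoters or other regulatory DNA, and Ldb1 encodes an adaptor without such fingers that joins enhancers to promoters by pairing with itself.

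The lists differed in length, from 102002 genic sites (NPC noXL) to 429119 (ESC WT), and the read depth behind them is unknown. Uridine lay under 48.6% to 63.9% of the sites of the UV lists and under 27.9% to 28.3% of the noXL sites. All 5 stem cell markers (Nanog, Zfp42, Tfcp2l1, Klf4, Esrrb) held sites in the ESC lists, with summed counts of 290 to 1118, against 17 to 30 in the NPC lists. Of 5 neural markers, Nes held 14 to 32 sites in the NPC lists, while Sox1, Pax6, Hes5 and Zic1 held none in either NPC UV list.

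The clearest contrast lay inside Ctcf itself, between its coding exons and the rest of the gene. In ESCs, WT held 35 sites in coding exons, ΔZF1 held 3 and noXL held 1. In NPCs the same counts were 19 for WT, 5 for ΔZF1 and 0 for noXL. WT was thus the highest list in both cell types, in counts not scaled to list length. The coding exon sites of all genes had the same order. They numbered 155955 for WT, 82842 for ΔZF1 and 50946 for noXL in ESCs, and 99546, 52710 and 32391 in NPCs. Introns had 58 WT, 53 ΔZF1 and 31 noXL sites among ESCs, the same order with smaller steps. Among NPCs they gave another order, with 1 site for WT and 10 each for ΔZF1 and noXL. The untranslated regions held 14 sites in ESC WT and 7 in each of the other 5 lists.

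Coding exons were read apart because the rescue is a transgene. The rescue DNA carries the coding sequence with the Flag-Halo tag and ends in a BGH polyadenylation signal, as far as the methods describe it, and the species of the coding sequence was not given in the sources used here. A site in a coding exon can therefore lie on RNA of the endogenous gene or of the transgene, and the site lists cannot tell them apart. A site in an intron or untranslated region of Ctcf is outside the transgene as described. In every count given here, fewer RNA copies and less crosslinking per RNA cannot be told apart.

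**Figure D1:**
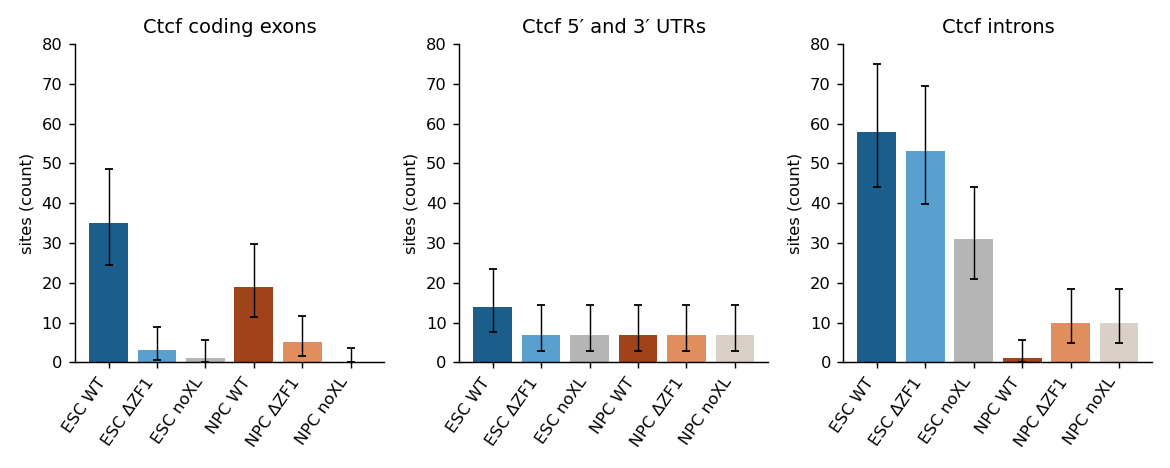
Number of sites in the coding exons, untranslated regions and introns of Ctcf in each of the 6 pooled lists (vertical axis, count; bars, sites; lines, exact 95% Poisson intervals). Coding exon sites stand highest in ESC WT (35) and NPC WT (19), while intron sites are close in ESC WT (58) and ESC ΔZF1 (53) and almost absent in NPC WT (1). Counts are not scaled to list length.

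The gene lies at chr8:105636568-105682922 on the plus strand, with 2208 nt of coding exons and 41495 nt of introns. Per kb, the coding exons held 15.9 sites in ESC WT (11.04 to 22.0), while ESC ΔZF1 had 1.36 (0.280 to 3.97) and ESC noXL 0.453 (0.0115 to 2.52). In NPCs the density was 8.61 sites per kb for WT (5.18 to 13.4) and 2.26 for ΔZF1 (0.735 to 5.28). The interval for the count of 0 in noXL reaches 1.67. The intron density among ESCs was 1.398 sites per kb for WT (1.06 to 1.81), 1.28 for ΔZF1 (0.957 to 1.67) and 0.747 for noXL (0.508 to 1.06). Among NPCs it was 0.0241 for WT (0.000610 to 0.134) and 0.241 for both ΔZF1 and noXL (0.116 to 0.443). The WT and ΔZF1 intervals stayed apart in ESCs for coding exons and overlapped for introns. These densities are not scaled to list length, and the WT lists were longer.

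As a share of the gene's own sites, coding exons need no scaling between lists, although the median coding share of all genes with at least 20 sites also moved, from 25.6% in NPC noXL to 46.4% in NPC WT. In ESCs the share of Ctcf was 32.1% for WT (24.1 to 41.4), 4.41% for ΔZF1 (1.51 to 12.2) and 2.5% for noXL (0.443 to 12.9). WT thus stood 29.6 percentage points above noXL (16.5 to 39.1), and ΔZF1 stood at -27.7 points from WT (-37.4 to -16.5). In NPCs the share was 67.9% for WT (49.3 to 82.1), 21.7% for ΔZF1 (9.66 to 41.9) and 0% for noXL. WT stood 67.9 points above noXL (41.7 to 82.1), and ΔZF1 at -46.1 points from WT (-64.8 to -18.7). These 4 intervals leave out 0. With sites at or above the median score of 3.02 the ESC difference between WT and noXL was 48.3 points (26.3 to 63.3). For ΔZF1 against noXL the difference was 1.91 points in ESCs (-8.87 to 9.95) and 21.7 points in NPCs (-0.30 to 41.9), and both intervals include 0.

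Pooled, the other members did not show this split in ESCs. Their pooled coding share among ESCs was 35.1% for WT, 33.9% for ΔZF1 and 35.3% for noXL, and WT differed from noXL by -0.21 points (-9.80 to 8.85). In NPCs their coding share was 41.2% for WT, 40.6% for ΔZF1 and 30.7% for noXL. Among single members, the coding share of Maz in ESCs was 72% for WT, 47.6% for ΔZF1 and 61.1% for noXL, and ΔZF1 stood at -24.4 points from WT (-46.3 to -0.15). That of Ldb1 was 60.7% for WT, 46.4% for ΔZF1 and 40% for noXL, and WT stood 20.7 points above noXL (-4.10 to 41.997). In NPCs Yy1 had the order of Ctcf, with a coding share of 28.6% for WT, 16.7% for ΔZF1 and 11.1% for noXL, and WT stood 17.5 points above noXL (1.44 to 31.8).

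Among all genes with at least 20 sites in a list, the coding share of Ctcf stood at different ranks. In ESC WT 32.2% of 5286 genes had a lower share, but in ESC ΔZF1 only 2.24% of 3398 genes did, and in ESC noXL only 2.00% of 2302 did. In NPC WT 78.7% of 3636 genes had a lower share than Ctcf. In NPC ΔZF1 32.8% of 2293 genes did, close to the rank in ESC WT, and NPC noXL had too few Ctcf sites to rank. A low rank was thus seen in ESC ΔZF1 and ESC noXL and not in NPC ΔZF1.

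Scaled to the coding exon sites of each list, the coding exons of Ctcf stood at 2.56 on the log2 scale for ESC WT over ESC noXL (0.98 to 6.05), where 16.8% of all genes passed a limit of 1 or -1. For ESC ΔZF1 over ESC WT its ratio was -2.26 (-4.25 to -1.02), where 13.8% of genes passed. Ctcf reached the minimum of 20 sites in both comparisons only through ESC WT, the list where it was high, and the first ratio rests on a single noXL site, so both are given as descriptions. The other 4 members compared lay between -0.92 and 0.48 in both. For NPC ΔZF1 over NPC WT the ratio of Ctcf was -0.82 (-2.38 to 0.36), and 0 of 5 members passed the limits that 12.1% of genes passed. NPC WT over NPC noXL had too few Ctcf sites for the gene minimum of 20. The 19 sites are 6.33-fold the floor of 3 counts that stands in for the 0. The lower end of the interval of the ratio was 4.95. The coding exon sites of the whole lists differed by 1.62 on the log2 scale.

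The sites of Ctcf also lay unevenly along the coding sequence. A motif search of the reference coding sequence found 11 zinc fingers, and the stretch from the first to the last of them, linkers included, is 930 nt long, or 42.1% of the coding length and 50.7% of its uridines. This stretch held 28 of the 35 coding sites in ESC WT, a share of 80% (64.1 to 89.96) that stands above both. In NPC WT it held 12 of 19 (63.2%, 41.0 to 80.9), an interval that includes both. Upstream of the fingers lay 4 (ESC WT) and 3 sites (NPC WT), and downstream 3 and 4.

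In the other zinc finger genes the same kind of stretch, from the first to the last finger, showed no excess beyond counting error, on fewer sites. On the longest coding transcript in ESC WT it held 5 of 20 coding sites of Yy1, 23 of 32 of Maz, 13 of 29 of Patz1 and 0 of 4 of Zfp143. These stretches made up 26.6%, 57.4%, 48.8% and 31.7% of the coding length, and each of these values lay inside the interval of the site share of its gene. The share of Maz, 71.9% (54.6 to 84.4), stood above its part of the length, and its interval overlapped that of Ctcf. Whether Ctcf differed from the other genes was not tested.

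**Figure D2:**
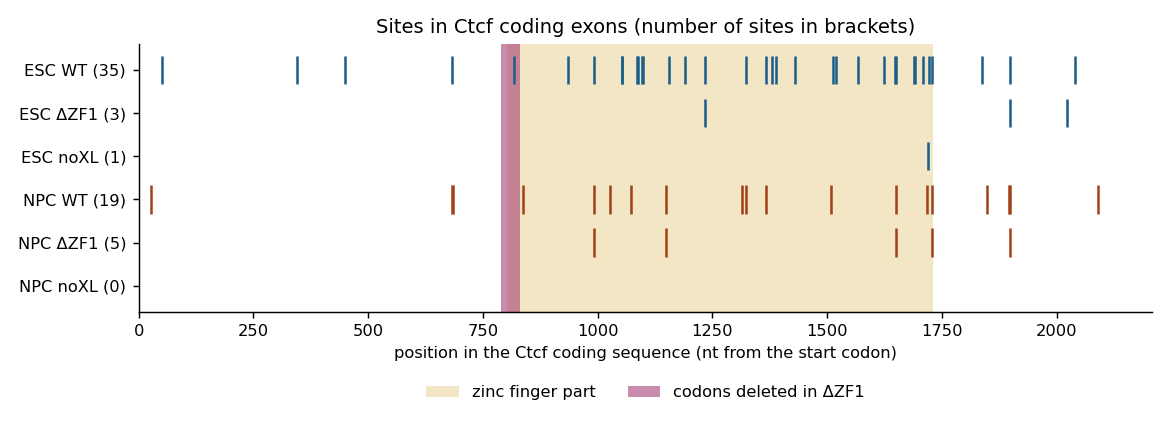
Position of each site in the Ctcf coding exons (horizontal axis, nucleotides from the start codon) in the 6 pooled lists, each mark being 1 site. The shaded zinc finger part holds 28 of 35 sites in ESC WT and 12 of 19 in NPC WT, and the narrow band marks the 42 nt deleted in ΔZF1, with 1 ESC WT site inside.

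The codons missing from the ΔZF1 rescue correspond to 42 nt at chr8:105664864-105664905 in exon 4. A single site fell there, in ESC WT, at codon 273 with a score of 2.04, and the other 5 lists had none. NPC WT, whose rescue carries these codons, had none either, so the stretch is too short to compare at these site numbers.

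Exact positions recurred in the coding exons. Of 50 distinct coding positions, 9 were in more than 1 list, all at uridines, and none of them was in a noXL list, which held 1 coding site in all. The WT lists shared 7 of the 9, and 4 were in ESC WT, NPC WT and NPC ΔZF1. Over whole genes 12 of 269 distinct Ctcf positions recurred. The other members had 14 of 340 (Yy1), 11 of 284 (Patz1), 10 of 120 (Maz), 4 of 33 (Zfp143) and 12 of 145 (Ldb1). Recurrence over all genes was not counted, so 9 of 50 is a description. The sequences of the 9 are shown because they are the Ctcf coding positions found in several lists. They were read from the GRCm38 (mm10) reference on the plus strand, 5′ to 3′, and the capital marks the crosslinked nucleotide.

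Ctcf coding nucleotide 682, chr8:105664430-105664458: tgtctgtgtatgatTttgaggaagaacag
Ctcf coding nucleotide 993, chr8:105666685-105666713: tgcgatatggccttTgtgaccagtggaga
Ctcf coding nucleotide 1148, chr8:105670278-105670306: gttccagtgcagttTgtgcagttatgcca
Ctcf coding nucleotide 1234, chr8:105671303-105671331: atgaatgttatattTgtcacgctcggttt
Ctcf coding nucleotide 1324, chr8:105671393-105671421: ttcattgtccccatTgtgacactgtcata
Ctcf coding nucleotide 1367, chr8:105674864-105674892: tgcaggtgtccactTgcgaaagcagcatt
Ctcf coding nucleotide 1650, chr8:105676113-105676141: catgatcccaacttTgtccctgctgcctt
Ctcf coding nucleotide 1729, chr8:105677228-105677256: gacatgcagataacTgtgctggtccagat
Ctcf coding nucleotide 1899, chr8:105680118-105680146: cctgctgtagaaatTgaacctgagccaga

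The window at coding nucleotide 1367 begins in the intron before exon 8, and the others lie within coding exons. In 8 of the 9 a G followed the capital, where 40.6% of the uridines of the Ctcf coding sequence are followed by G. Over all uridine sites in Ctcf coding exons this held for 11 of 26 (ESC WT) and 11 of 16 (NPC WT), against 36.1% and 38.4% of the coding uridine sites of all genes in those lists. The ESC WT interval (25.5 to 61.1%) includes these values, and the NPC WT interval (44.4 to 85.8%) lies above them. The other members had 17 of 28 in NPC WT (60.7%, 42.4 to 76.4), so a G after the site was not particular to Ctcf there.

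The PureCLIP score ranks how clearly a site stands out within its list and is not scaled to depth. Coding nucleotide 1650 had the highest score of any member site, 110.4 in NPC WT, against 10.9 for ESC WT and 1.98 in NPC ΔZF1. Coding nucleotide 993 scored 92.5 in NPC WT, 63.0 in NPC ΔZF1 but 4.71 in ESC WT. Coding nucleotide 1729 had 48.2, 26.2 and 10.8 in the same lists. The highest scores of the gene thus lay in the NPC lists, while coding nucleotide 682 scored 24.8 in ESC WT and 3.49 in NPC WT. No site of another member scored above 40.2.

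Intron sites of Ctcf were spread over the gene. Intron 2, the longest at 20121 nt, counted 24 WT, 21 ΔZF1 and 11 noXL sites among ESCs, and in NPCs it held 7 for noXL and none for WT or ΔZF1. The only intron site of NPC WT lay in intron 8. Relative to all intron sites per list, the introns of Ctcf stood at 0.92 for ESC ΔZF1 over ESC WT (0.38 to 1.45), inside the limits that 23.5% of genes passed. The median was 0.01 over all genes and 0.29 over 168 genes of chromosome 8. For NPC WT over ESC WT the ratio was -3.67 (-7.17 to -2.13), from 1 site against 58. It was -2.10 between the ΔZF1 lists (-3.17 to -1.25) and -1.06 between the noXL lists (-2.16 to -0.15). In all 3 pairs the minimum of 20 was reached through the ESC list alone, where the counts were high, so these ratios are given as descriptions.

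Over whole gene bodies the members compared other than Zfp143 stood close to the rest of the genes within ESCs. Ctcf and Patz1 stood lower in NPC WT than in ESC WT beyond counting error. Per 100000 genic sites, the levels of Ctcf among ESCs were 25.4 for WT (20.9 to 30.6), 31.2 for ΔZF1 (24.2 to 39.6) and 26.5 for noXL. In NPCs they were 12.2 for WT, 15.0 for ΔZF1 and 16.7 for noXL. All 3 NPC levels lay below every ESC level.

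Yy1, at chr12:108792973-108820148 on the plus strand, held 116, 55 and 41 sites in WT, ΔZF1 and noXL ESCs and 56, 48 and 45 in the NPC lists. In ESCs it was level, at 25.3 to 27.2 per 100000 genic sites. In NPCs it was highest without UV, at 44.1 for noXL, 24.3 for WT and 31.3 for ΔZF1. Introns held 72 of its 116 ESC WT sites (62.1%) and 20 of its 56 NPC WT sites (35.7%), a difference of -26.4 points (-40.3 to -10.4).

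Patz1, at chr11:3288874-3309083 on the plus strand, held 123, 60 and 47 sites in WT, ΔZF1 and noXL ESCs and 33, 18 and 17 in the NPC lists. It was the member with most sites in ESC WT. Introns held 58 of its 123 ESC WT sites and 2 of its 33 NPC WT sites, a difference of -41.1 points (-50.9 to -25.0), beside -49.6 points for Ctcf (-59.2 to -32.7). The gene shares its 3′ end with Gm11944 on the same strand. Genes on chromosome 11 as a whole stood lower in the ΔZF1 lists, with medians of -0.47 for ESC ΔZF1 over ESC WT and -0.61 for the NPC pair, where Patz1 itself stood at -0.04 (-0.50 to 0.39) and -0.25 (-1.10 to 0.53). The part of that chromosome-wide shift in the Patz1 values was not tested.

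Maz, at chr7:127022130-127027037 on the minus strand, held 50, 21 and 18 sites in WT, ΔZF1 and noXL ESCs and 21, 14 and 8 in the NPC lists. In ESC WT 36 of its 50 sites were in coding exons and 1 was in an intron. Per kb of exon in ESC WT, Maz held 16.5 sites, Ldb1 12.4, Patz1 11.01, Ctcf 10.5, Yy1 6.86 and Zfp143 2.58. Ctcf was therefore not an outlying RNA among the members by exon density.

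Ldb1, at chr19:46031570-46045214 on the minus strand, held 61, 28 and 20 sites in WT, ΔZF1 and noXL ESCs and 20, 13 and 17 in the NPC lists. Coding exons took 37 of its 61 sites in ESC WT, at 28.6 per kb (20.1 to 39.4), the densest coding exons of the members. In NPCs the coding exons counted 11 WT, 10 ΔZF1 and 11 noXL sites, where the coding exon sites of the whole lists differed by 1.62 on the log2 scale. The scaled ratio of these exons for NPC WT over NPC noXL was -1.62 (-2.79 to -0.45), where 26 of 2228 genes were lower. It was the only 1 of 3 members past a limit, which 21% of genes passed. For NPC WT over ESC WT its coding exons stood at -1.02 (-2.06 to -0.15), again 1 of 5 members past a limit, which 14.8% of genes passed. With 11 sites against 37, Ldb1 reached the minimum of 20 there through ESC WT alone, the list where it was high. That ratio is therefore given as a description.

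Zfp143, at chr7:110061217-110095394 on the plus strand, was the sparsest member with sites, with 12, 7 and 10 sites in WT, ΔZF1 and noXL ESCs and 6, 3 and 1 in the NPC lists. Vezf1, at chr11:88068279-88084729, held no site in any list. The lists used here had no site on either strand between 87987507 and 88335864 of chromosome 11, a stretch with 5 coding genes that include Vezf1 and the splicing factor gene Srsf1. Site-free stretches at least this long numbered 1686 over the genome. A lack of crosslinks and a lack of coverage cannot be told apart for Vezf1, and its 0 is not read as a level.

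**Figure D3:**
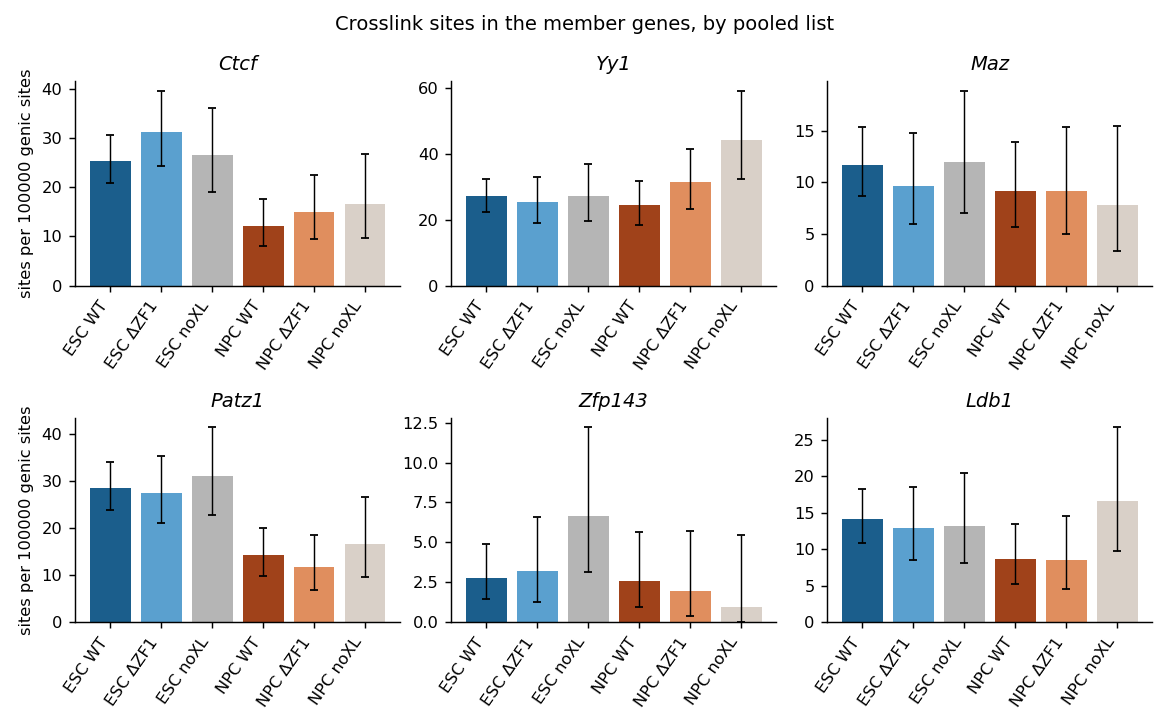
Sites of each member with sites per 100000 genic sites of the list (vertical axis, each panel on its own scale from 0) in the 6 pooled lists, with exact 95% Poisson intervals as lines. Ctcf and Patz1 stand lower in all 3 NPC lists than in all 3 ESC lists, and Yy1 is highest in NPC noXL (44.1).

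For the ratio of whole genes, each list was scaled to its genic sites, 1 was added to each count, and a gene needed a sum of at least 20 sites over the pair of lists, which 1 list alone can supply. For ESC WT over ESC noXL, 1 of 6 members passed a limit, where 14.7% of all genes did. This was Zfp143 at -1.27 (-2.42 to -0.07), from 12 sites against 10. The other 5 lay between -0.14 and 0.05. For ESC ΔZF1 over ESC noXL 0 of 5 members passed (14.4% of genes), between -0.32 for Maz and 0.22 for Ctcf. For ESC ΔZF1 over ESC WT 0 of 5 passed (12.3% of genes), between -0.23 for Maz and 0.31 for Ctcf. In ESCs the whole-gene ratios of Ctcf did not show the coding exon contrast.

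For NPC WT over NPC noXL 0 of 5 members passed, where 17% of genes did, and 4 of the 5 stood below 0, with a median of -0.49 beside 0.03 over all genes. Ldb1 was at -0.95 (-1.86 to -0.02), Yy1 at -0.86 (-1.42 to -0.30), Ctcf at -0.49 (-1.31 to 0.40), Patz1 at -0.26 (-1.05 to 0.62) and Maz at 0.12 (-0.93 to 1.36). The intervals of Ldb1 and Yy1 leave out 0. For NPC ΔZF1 over NPC noXL 0 of 5 passed (15.2% of genes), with a median of -0.50. For NPC ΔZF1 over NPC WT 0 of 5 passed (13.1% of genes), between -0.25 and 0.37. These comparisons share lists with each other.

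For NPC WT over ESC WT all 5 members compared stood below 0, and 1 of 5 passed a limit, where 22% of genes did. Ctcf stood at -1.02 (-1.66 to -0.47), Patz1 at -0.97 (-1.55 to -0.45), Ldb1 at -0.66 (-1.43 to 0.01), Maz at -0.31 (-1.08 to 0.37) and Yy1 at -0.14 (-0.61 to 0.31). Among sites at or above the median score of 3.02 the ratio of Ctcf was 0.04 (-0.75 to 0.76).

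For NPC ΔZF1 over ESC ΔZF1, 2 of 5 passed (25% of genes), Ctcf at -1.02 (-1.73 to -0.38) and Patz1 at -1.18 (-1.98 to -0.48). With the same score minimum Ctcf was at -1.09 (-2.16 to -0.17) between the ΔZF1 lists, so that setting moved it near 0 in the WT pair and not in the ΔZF1 pair. Patz1 was not past a limit between the ΔZF1 lists with that minimum, and neither gene was with uridine sites only. Scaling by the median ratio left Patz1 past the limit and not Ctcf. Exon sites alone put Ctcf at 0.49 between the ΔZF1 lists (-0.57 to 1.52). For NPC noXL over ESC noXL 0 of 5 passed (23.4% of genes), with Patz1 at -0.85 (-1.69 to -0.11), Ctcf at -0.62 (-1.48 to 0.14) and Yy1 at 0.70 (0.09 to 1.30). There Patz1 and Ctcf reached the minimum through ESC noXL alone.

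With introns alone 41.2% of genes passed a limit for NPC WT over ESC WT, and Patz1 was at -3.09 (-5.54 to -1.75), from 2 sites against 58, with Yy1 at -0.59 (-1.35 to 0.07). Patz1 was at -2.18 between the ΔZF1 lists (-3.91 to -0.99), where 45.7% of genes passed, and at -1.11 between the noXL lists (-2.42 to -0.05), where 37.6% did. Patz1 reached the minimum of 20 intron sites in these pairs through the ESC list alone, as Ctcf did, so these ratios are descriptions. Passing a limit on introns was common among all genes. On exons Patz1 was at -0.28 for NPC WT over ESC WT (-0.92 to 0.31), -0.58 between the ΔZF1 lists (-1.52 to 0.24) and -0.56 between the noXL lists (-1.68 to 0.40). Exons of Ctcf were at -0.13 for NPC WT over ESC WT (-0.82 to 0.51). The exons of Yy1 went the other way between the ΔZF1 lists, at 1.24, from 30 NPC and 20 ESC sites. It was 1 of 5 members past a limit there, which 18.4% of genes passed on exons.

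**Figure D4:**
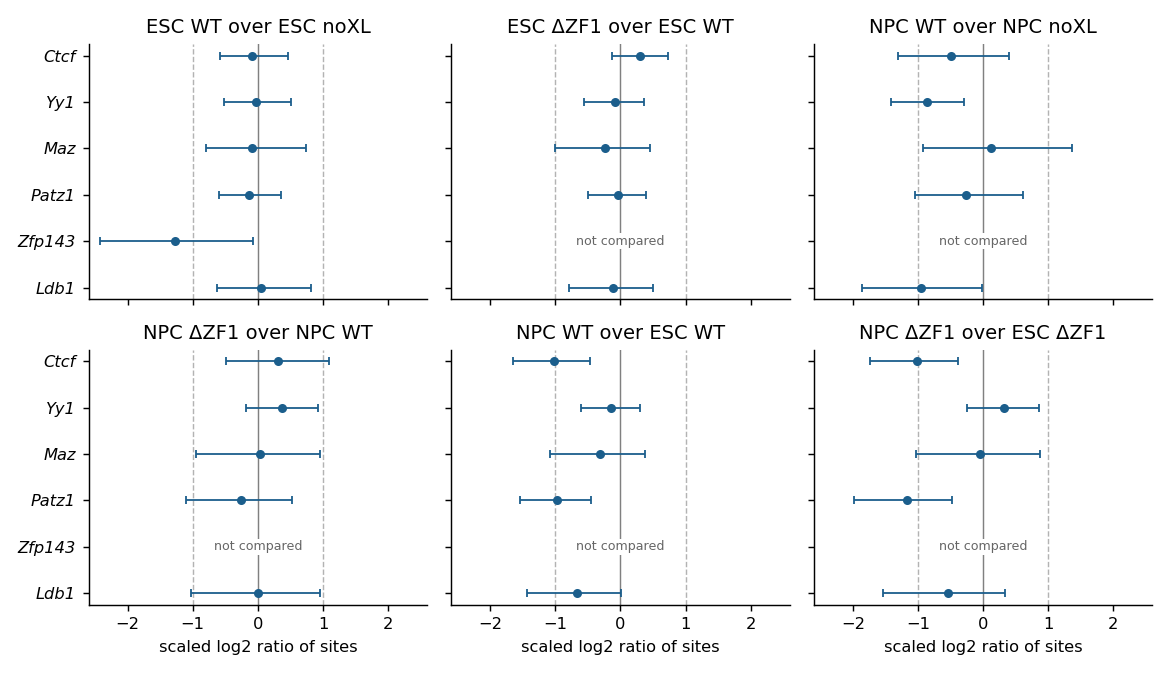
Scaled log2 ratio of sites per member gene in 6 comparisons (horizontal axis; points, ratios; lines, 95% intervals for counting error; dashed lines, the limits of 1 and -1). Ctcf is at -0.08 in ESC WT over ESC noXL and at -1.02 in both UV comparisons of NPC with ESC, and Zfp143 had enough sites in 1 panel only.

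Uridine, the base that UV links most readily, was more frequent under the member sites of the UV lists than of noXL, as it was over all sites. Over all members the uridine share among ESCs was 59.4% for WT (54.95 to 63.8), 44.8% for ΔZF1 (38.6 to 51.1) and 27.3% for noXL (21.2 to 34.3). In NPCs it was 61.0% for WT (53.3 to 68.1), 66.4% for ΔZF1 (57.5 to 74.2) and 26.7% for noXL (19.1 to 35.8). Over all sites of the ESC lists the shares were 59.9%, 48.6% and 28.3%, and of the NPC lists 63.9%, 58.5% and 27.9%. The members were thus near the whole lists, and all 6 of these values lay inside the intervals of the members.

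Ctcf had the highest uridine share of the members in ESC WT, 67.9% (74 of 109), followed by Yy1 with 63.8%, Patz1 with 60.2%, Maz and Zfp143 with 50% and Ldb1 with 44.3%. Its share was 48.5% for ESC ΔZF1 and 40% for ESC noXL. ΔZF1 stood at -19.4 points from WT (-33.4 to -4.50), and WT at 27.9 points above noXL (9.92 to 43.7). All 6 members with sites had the order WT, ΔZF1, noXL in ESCs, which is also the order of the whole lists. The interval of the difference between ESC WT and ESC noXL left out 0 for Yy1, Maz, Patz1 and Zfp143 (0.868 to 65.96 points, from 12 and 10 sites), and for Ldb1 it was -0.33 to 41.5 points.

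**Figure D5:**
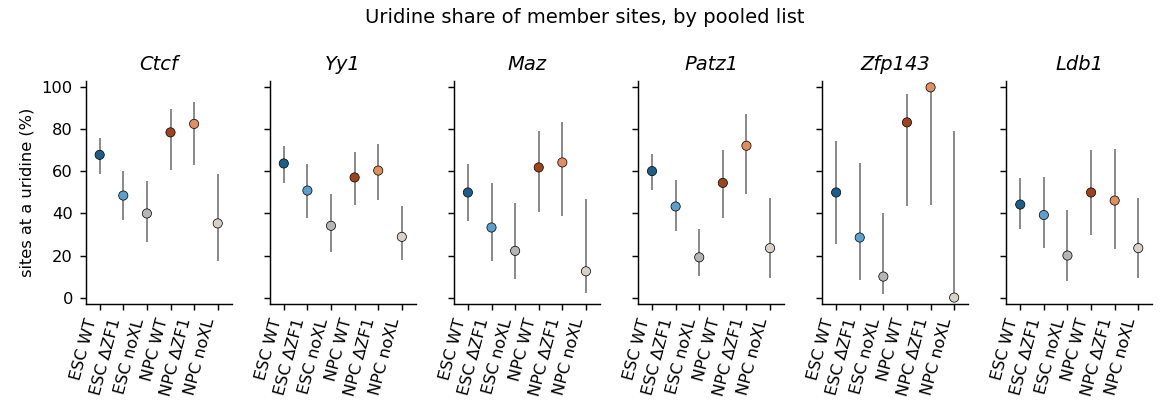
Share of sites at a uridine (vertical axis, percent) for each member with sites in the 6 pooled lists, with 95% Wilson intervals as lines. Each noXL point lies below the UV points of the same gene and cell type, and Zfp143 rests on 12 sites or fewer per list.

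Recurrent positions outside Ctcf were of different kinds. Of 33 positions found in several UV lists and in no noXL list, 20 were uridines, and of 18 positions also found in a noXL list 4 were. None of the 12 recurrent positions of Ctcf was in a noXL list, but 9 of the 12 were coding, where the noXL lists held 1 and 0 Ctcf sites, so this repeats the coding count. The sequences below, chosen after their lists were seen, set 3 positions found with UV only beside 3 shared with noXL. They were read from GRCm38 on the strand of each gene, 5′ to 3′, with the site in capitals.

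Yy1, UV only, chr12:108814667-108814695: ccagagtccacgtcTgtgcagagtgtggc
Patz1, UV only, chr11:3290720-3290748: acggcgggcgctttTgcgacgtgctccta
Maz, UV only, chr7:127026262-127026290: gtcggggctgagctCcagtcccgcttctt
Yy1, also noXL, chr12:108812965-108812993: gcttgccctcataaAgtaagtaatgcgag
Zfp143, also noXL, chr7:110061695-110061723: ggggcttgggggccGggcggctgtttcct
Ldb1, also noXL, chr19:46032748-46032776: cccttggatcctggGgtttatacctacag

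The first Yy1 site and the Patz1 site were each in ESC WT, NPC WT and NPC ΔZF1, the same lists that shared 4 coding positions of Ctcf. The Maz site was in ESC WT, ESC ΔZF1 and NPC WT. The second Yy1 site was in 5 lists, and its window runs from a coding exon into an intron. The Zfp143 site, in an intron, was in 4 lists. The Ldb1 site, in the 3′ UTR, scored 40.2 for WT, 20.7 for ΔZF1 and 3.48 for noXL, all in ESCs.

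Positions were called near at a distance of up to 5 nt with matching strand. Of the member sites in NPC WT 32.3% lay near an ESC WT site (25.6 to 39.8), where 29.3% of all genic NPC WT sites did. Of the member sites in ESC WT 11.04% lay near an NPC WT site (8.52 to 14.2), against 17.8%, 9.98% near an ESC ΔZF1 site (7.59 to 13.0), against 16.2%, and 6.16% near an ESC noXL site (4.32 to 8.70), against 8.40%. Of the ESC ΔZF1 member sites 2.09% lay near NPC ΔZF1 (0.897 to 4.80), against 8.18%, and of the ESC noXL member sites 5.11% lay near ESC ΔZF1 (2.71 to 9.43), against 11.96%. Of the NPC ΔZF1 member sites 24.4% lay near ESC WT (17.5 to 32.8), against 17.6%, and of the Ldb1 sites in ESC WT 13.1% lay near NPC noXL (6.80 to 23.8), against 4.84%. For Ctcf the shares were 42.9% of NPC WT sites near ESC WT (26.5 to 60.9) and 3.67% of ESC WT sites near ESC noXL (1.44 to 9.06). Of its NPC WT sites 25% lay near an NPC ΔZF1 site (12.7 to 43.4), above the 11.5% of all genic sites, while 7.34% of its ESC WT sites lay near an ESC ΔZF1 site (3.77 to 13.8), below the 16.2% of all genic sites. None of its 28 NPC WT sites lay near an NPC noXL site, with an interval that reaches 12.1%.

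A list of 15 genes related to the members by family or complex was set beside them, 14 of them found by name. Ctcfl, the germline relative of Ctcf, and Ldb2, the relative of Ldb1, held no site in any list. For ESC WT over ESC noXL 2 of 8 compared passed a limit, where 14.7% of all genes did. These were Zfp42 at 1.61 (0.98 to 2.37) and Ssbp3 at -1.58 (-2.50 to -0.67). Zfp42 reached the gene minimum there through ESC WT alone, so its ratio is a description. For ESC ΔZF1 over ESC WT 0 of 9 passed (12.3% of genes). Zfp263 stood at 1.05 for ESC ΔZF1 over ESC noXL (0.14 to 2.15), and Zfp42 at -1.05 for NPC WT over NPC noXL (-2.24 to 0.16). The Zfp263 ratio is also a description, since ESC ΔZF1 alone supplied the gene minimum.

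For NPC WT over ESC WT 9 related genes were compared, and 22% of all genes passed a limit. The 4 related genes past a limit each reached the gene minimum through their high list alone. Their number is therefore not read against that share, and their ratios are descriptions. Ssbp3, which encodes a partner of Ldb1, was at 5.198 (4.60 to 5.95), from 18 ESC WT sites and 373 NPC WT sites. Zfp42 was at -2.88, Yy2 at -1.58 and Ssbp4 at -1.35. Between the ΔZF1 lists 8 related genes were compared, and 25% of all genes passed a limit. There Ssbp3 was at 3.98, Ssbp4 at -1.66, Zfp42 at -1.62 and Zfp263 at -1.08. Each of these also reached the minimum through its high list alone, so the ratios are descriptions. Ssbp3 also stood high without UV, at 3.53 between the noXL lists, again with the minimum reached through the NPC list alone. Ldb1 itself was at 0.34 there (-0.59 to 1.25).

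The genes whose levels over the 6 lists were most like that of Ctcf, by Euclidean distance between centred log2 levels among 6045 genes with at least 50 sites, were Rybp (0.23), Zwilch (0.25) and Gid8 (0.27), where the median gene lay at 1.55. Rybp held 469, 239 and 148 sites in WT, ΔZF1 and noXL ESCs and 107, 89 and 70 in the NPC lists.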

How the data were processed

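Crosslink sites bound by Flag-Halo-CTCF were measured by iCLIP2 in the 6 groups. Per the labels and the study's methods, the authors used Flexbar for trimming, STAR for alignment (mm10), UMI-tools to collapse PCR copies and bedtools, then pooled the replicate alignments per group and called sites with PureCLIP. The deposited value of each site is the PureCLIP score, and no read count is in the lists used here, so depth is unknown. The authors' lists were used as deposited.

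Each site was assigned by strand to GENCODE M21 gene bodies (mm10), and within a gene to coding exon, UTR, non-coding exon or intron in that order. Ratios were log2 of counts plus 1, scaled to the genic (or coding exon, or intron) sites of each list, over genes whose 2 counts summed to at least 20, with limits of 1 and -1. Intervals for shares are Wilson intervals, and those for differences and ratios are built from them. Densities have exact Poisson intervals. All have 95% coverage of counting error only, and a fold against a count of 0 used a floor of 3 counts. Ratio code was tested on simulated data.

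The members and gene lists were chosen with earlier results of these data known. All 7 members were named, with related genes past a limit and the 3 genes nearest to Ctcf in pattern. Groups followed the labels. No p-value was computed, since each group was 1 list. Alternatives are listed in the closing section. No level is given for Vezf1, and protein sequences were not analysed here. Computation used pysam 0.24.0, scipy 1.17.1, matplotlib 3.10.9, pandas 2.3.3 and numpy 2.4.6 under Python 3.11.15.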

Additional observations from a re-analysis of the deposited data

How the results depend on the processing

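Of 46 member ratios over whole genes, 4 passed a limit of 1 or -1. That number was 2 with uridine sites only (none of the same 4), 21 without scaling to list length, and between 3 and 6 under the other alternatives run. Of 440 single ratios under alternatives, 398 moved by less than their counting interval, 39 moved more, 21 of them without scaling, and 3 that had been past a limit changed sign. Counting values inside the limits too, 70 changed sign, 23 of them without scaling. The 3 were Ctcf for NPC ΔZF1 over ESC ΔZF1 with exon sites only (0.49), Ctcf for NPC WT over ESC WT with sites at or above the median score of 3.02 (0.039) and Zfp143 for ESC WT over ESC noXL without scaling (0.24). The cause was not tested. With the same score minimum the coding share of Ctcf was 48.3 points higher in ESC WT than in ESC noXL, ESC ΔZF1 stood at -41.4 points from ESC WT, and the uridine share of member sites in NPC WT was 73.4%. Shares of near sites followed the distance allowed. At the same nucleotide and within 50 nt they were 1.70% and 33.5% for ESC WT near ESC noXL, 5.52% and 35.0% for ESC WT near NPC WT, 15.9% and 67.7% for NPC WT near ESC WT, and 0.610% and 22.6% for NPC WT near NPC noXL. With the score minimum 21.5% of NPC WT sites lay near ESC WT. No paired analysis was possible because sites were called on merged libraries, and no library could be left out for the same reason. Depth per library is unknown, so a low count cannot be told from a shallow list.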
